A study of Arabidopsis thaliana with 22 samples.

Results

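The mRNAs described here encode ribosomal proteins (r-proteins) of the plastid and mitochondrial ribosomes and are transcribed in the nucleus. They were taken from the study's catalog of Arabidopsis r-protein probe sets, which lists 123 organellar rows. The 100 probe sets with a locus on the nuclear chromosomes were kept, of 22746 probe sets on the array, and the other 23 match only genes of the organelles themselves. Of the 100, 49 were assigned to the plastid ribosome (31 large subunit, 12 small subunit and 6 plastid-specific ribosomal proteins, PSRP) and 46 to the mitochondrial ribosome (33 large subunit and 13 small subunit). The remaining 5 name both a nuclear locus and a gene of the mitochondrial genome and were kept apart. The prefixes p and m give the ribosome as listed in the catalog. Of the 100 probe sets, 11 list several loci found in the RefSeq annotation or carry an identifier that marks several genes.

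The data came from *Arabidopsis thaliana* seedlings of the Col-0 ecotype. The wild-type was compared with the *pab2 pab8* double mutant, which carries the T-DNA alleles SALK_026293 of *PAB2* and SALK_022160 of *PAB8*, both encoding cytoplasmic poly(A) binding proteins. Both genotypes were grown side by side on agar with 1% sucrose in continuous light (80 μmol per square meter per second) at 22°C and were 10 to 12 days old. Aerial tissue gave total RNA (T) and, after sucrose gradient fractionation, a non-polysomal RNA fraction (NP, free and monosomal mRNA) and a polysomal fraction (PL). Each genotype had 3 T arrays and 4 arrays of each fraction, 22 ATH1 arrays in all. The replicates are seedling populations rather than single plants, the mutant is described as slightly dwarfed, and other PAB genes remain in it. The translation state (TL) is the log2 PL signal minus the log2 NP signal of one genotype and replicate, so a TL of 1 is a 2-fold excess of polysomal over non-polysomal signal. Because the arrays of both fractions were normalized to nearly the same median, a TL of 0 is set by that scaling and does not mark equal amounts of polysomal and free mRNA. A TL above 0 places an mRNA above the average of the array.

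Plastid and mitochondrial ribosomes are of bacterial descent and translate the few mRNAs that the organelles transcribe, chiefly for photosynthesis, respiration and the ribosomes themselves. Most of their r-proteins are made on cytosolic ribosomes from nuclear transcripts and are imported through an N-terminal targeting peptide. Green shoot tissue holds far more plastid than mitochondrial ribosomes, and loss of single plastid r-proteins often gives pale seedlings or arrested embryos.

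The signal of both disrupted genes was low in the mutant. In total RNA, *PAB2* was 10.55 to 11.01 in wild-type and 4.95 to 5.07 in the mutant, and *PAB8* was 9.89 to 10.34 and 5.88 to 6.69. Array medians were 6.12 to 6.23 for T and 4.68 to 4.99 for NP and PL. T signals were set against those of NP or PL only to mark probe sets with dim signal. The mutant NP array of replicate 2 stood lowest, at 4.68. Its pair gave a median TL change of 0.23 over all probe sets, against -0.03 to 0.00 in the other 3 pairs. Of the tissue markers, 1 of 6 shoot genes and 1 of 7 root genes could be matched to a probe set. RCA (Rubisco activase, a leaf enzyme) and PYK10 (a beta-glucosidase abundant in roots) were both bright, at 14.2 to 14.4 and 12.1 to 12.3 in T, with overlapping ranges in the genotypes, so root tissue could not be assessed with this list.

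In wild-type seedlings most plastid r-protein mRNAs had a high TL relative to the rest of the array. Of the 49 plastid probe sets, 31 had a TL above 0 and 5 a TL below 0 (limma against 0, false discovery rate (FDR) under 0.05 over all probe sets). The corresponding shares of all probe sets were 24.2% above and 26.2% below. The mitochondrial members were spread around a lower center, with 19 of 46 above and 6 below 0. The median TL was 0.79 for plastid and 0.18 for mitochondrial members, against -0.10 for all probe sets and 0.22 for the 216 probe sets of cytosolic r-proteins. With 1 replicate left out the plastid median was 0.77 to 0.87, whereas the mitochondrial median was 0.05 without replicate 1 and up to 0.25 without the others. The 23 probe sets of r-proteins encoded in the organelles themselves, whose transcripts are not substrates of cytosolic ribosomes, had a median of -0.55, with 2 above and 13 below 0. A TL of at least 1 with FDR under 0.05 was found for 23 of 49 plastid and 2 of 46 mitochondrial members. Of all 22746 probe sets, 1534 met both limits.

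**Figure D1:**
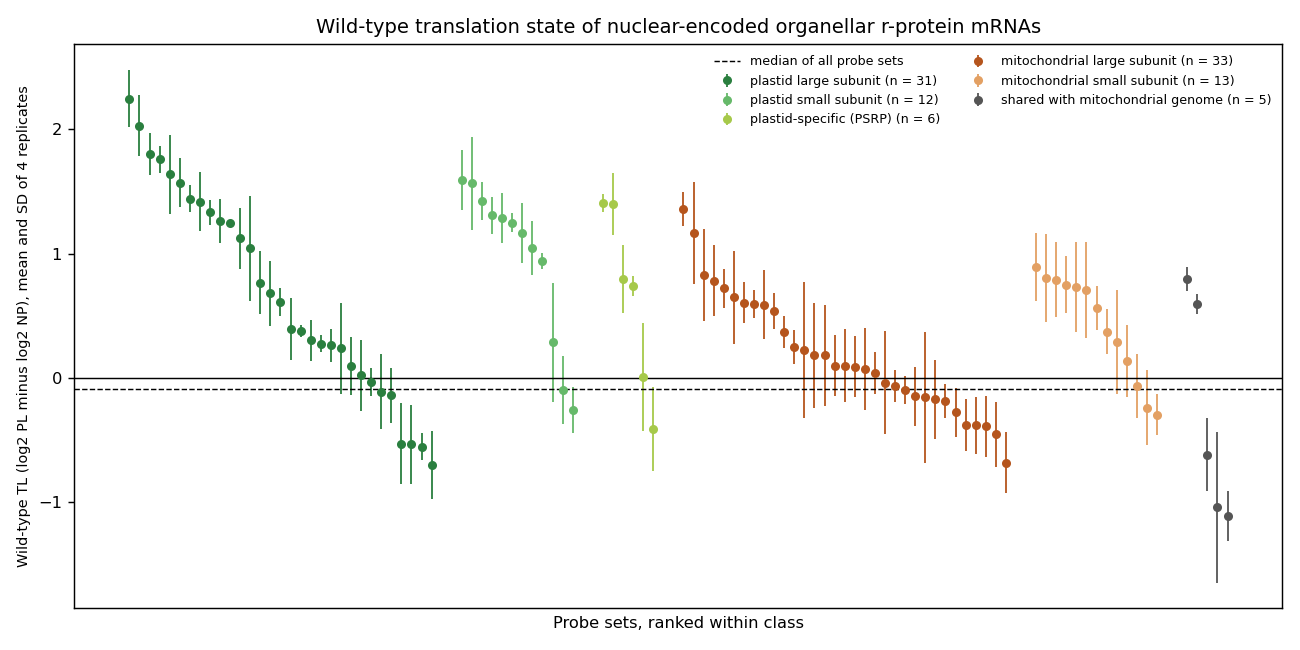
Wild-type TL (log2 PL minus log2 NP) of all 100 members, ranked within each class; points are means and bars SDs of 4 replicates. Most plastid members lie above 0, with a median of 0.79, whereas mitochondrial members straddle 0 with a median of 0.18; the dashed line is the median of all probe sets, -0.10.

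The plastid members ranged from -0.70 to 2.25. pRPL11 (AT1G32990), whose bacterial counterpart lies at the base of the stalk that receives translation factors, had TL values of 2.37, 2.25, 1.92 and 2.46 in replicates 1 to 4. This was the highest TL of the 100, a 4.75-fold excess of polysomal signal (FDR 4.71e-09, limma). pRPL18N (AT1G48350), a relative of the bacterial 5S rRNA binding protein L18, had values of 1.74, 2.24, 2.23 and 1.91.

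The next members in rank also belong to the large subunit. A pRPL5 family protein (AT4G01310), related to a further 5S rRNA binding protein, averaged 1.80 ± 0.17 (SD, n = 4). pRPL1 (AT3G63490), which in bacteria forms the stalk beside the exit of spent tRNA, averaged 1.76 ± 0.11. pRPL21C (AT1G35680) averaged 1.64 ± 0.32. Neighbors in this order differed by about as much as their replicates did.

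At the low end of the plastid class stood pRPL17 (AT3G54210), with TL values of -0.87, -0.42, -1.001 and -0.53. All 4 values were below 0 (FDR 0.00035, limma), but its signal was dim, with a mean log2 signal of 3.22 over the fraction arrays against a median of 4.96 for all probe sets. In total RNA the same probe set was bright, at 11.90, 11.84 and 11.89 in wild-type, so the fraction arrays hardly registered an mRNA that was abundant on the T arrays, and its TL rests on signal near the floor. pRPS16, PSRP-5 and pRPL12C showed the same mismatch, with wild-type T means of 12.36, 12.38 and 12.37 and fraction signals of 3.15, 5.42 and 5.20. The cause was not tested. pRPL19 (AT4G17560), a protein of the subunit interface in bacteria, had values of -0.58, -0.51, -0.44 and -0.70. pRPL18N (AT3G20230) averaged -0.54 ± 0.32, pRPL11 (AT5G51610) -0.53 ± 0.33 and PSRP-5 (AT3G56910) -0.41 ± 0.34 (n = 4 each). The pRPL11 copy was as dim as pRPL17 in the fractions, at 3.27, whereas AT3G20230 was well measured at 8.23.

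By subunit, the plastid small subunit had the highest median TL, 1.21, with 9 of 12 members above and 0 below 0 by FDR (1 of 12 was below 0 at an unadjusted p under 0.05). pRPS17 (AT1G79850), an early-binding protein of the small subunit in bacteria, led this class with TL values of 1.54, 1.76, 1.80 and 1.27. The exceptions were pRPS9, pRPS1 (AT1G71720) and pRPS16, at 0.28, -0.10 and -0.26, which were not called. The plastid large subunit had a median of 0.61, with 18 of 31 above and 4 below 0. Among the 6 PSRPs, named for lacking a counterpart in the core of the bacterial ribosome, 4 were above and 1 below 0. PSRP-1 (AT5G24490), a relative of bacterial factors that idle ribosomes, was tightly measured at 1.37, 1.44, 1.33 and 1.49.

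The mitochondrial members ranged from -0.69 to 1.36. The highest, mRPL19 (AT1G24240), had TL values of 1.47, 1.34, 1.18 and 1.46 and a 2.57-fold excess of polysomal signal (FDR 8.92e-08, limma). mRPL1 (AT2G42710) was less even, at 1.63, 1.26, 0.63 and 1.14. Its wild-type NP signals were dim, at 3.53, 4.14, 4.21 and 4.02, against medians of 4.91 to 4.98 for all probe sets. mRPS9 (AT3G49080), mRPL14 (AT5G46160) and mRPS16 (AT5G56940) averaged 0.89, 0.83 and 0.81, with SDs of 0.27, 0.37 and 0.35 (n = 4). These 3 did not differ beyond their replicate spread.

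At the low end, an mRPL17 family protein (AT5G09770) had TL values of -0.38, -0.77, -0.64 and -0.96 (FDR 0.000227, limma). It was followed by mRPL12 (AT1G70190) at -0.46 ± 0.26 and mRPL12 (AT4G37660) at -0.39 ± 0.25, copies of the protein whose bacterial counterpart makes up the flexible stalk. mRPL15 (AT5G64670) and mRPL17 (AT5G64650) stood at -0.39 ± 0.23 and -0.38 ± 0.21 (n = 4 each). The fraction signal of mRPL15 was 2.73, dimmer than pRPL17, so its place in this order is uncertain. The small subunit again lay above the large subunit, with medians of 0.56 (8 of 13 above and 1 below 0) and 0.10 (11 of 33 above and 5 below 0).

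The 5 probe sets that match both a nuclear copy of mitochondrial DNA and the mitochondrial genome could not be assigned to either source. The mRPS4 probe set had TL values of -0.91, -0.97, -1.32 and -1.26, and those of mRPL5 and mRPS7 averaged -1.04 ± 0.61 and -0.62 ± 0.29. By contrast, the probe sets of mRPL2 (0.55, 0.65, 0.50 and 0.67) and of mRPS12 and mRPS7 (0.78, 0.83, 0.90 and 0.67) were above 0 in every replicate. All 5 passed the test against 0, as did 24.2% of all probe sets above and 26.2% below 0. In total RNA the wild-type signal of all 5 was below the array median. On the fraction arrays, 3 of the 5 had a mean signal below the median of all probe sets, 4.96. That of mRPL5 was 3.41, so its TL rests on dim signal.

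Genes that share an r-protein name differed widely in TL. The pRPL11 pair was 2.78 apart, at 2.25 and -0.53, but AT5G51610 was dim on every kind of array (3.20 in wild-type T and 3.27 in the fractions) and is not shown to be above background, so this difference is uncertain. The 4 pRPL18N genes spanned 2.57. After AT1G48350 at 2.03 came AT5G13720, with values of 0.63, 0.44, 0.69 and 0.69, and AT5G27820, with 0.75, 0.38, 0.20 and 0.24. AT3G20230 was below 0 in every replicate, from -0.95 to -0.19. The ranges of the first and last of these genes did not overlap with each other or with those of the middle pair.

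The mRPL19 pair was 1.46 apart, with mRPL19D (AT4G16030) at -0.10 ± 0.11 (SD, n = 4). The mRPL19D probe set was not shown to be above background either, with T signals of 2.86, 2.92 and 2.87 and a fraction signal of 2.55. The PSRP-3 pair was 1.40 apart, with AT1G68590 at 1.36, 1.25, 1.23 and 1.76 and AT5G15760 at -0.31, 0.09, 0.59 and -0.35. The fraction signal of AT5G15760 was 5.01, about the array median of 4.96, against 10.96 for AT1G68590, so this difference is uncertain too. The 3 pRPL12 probe sets were 0.21 apart, all near 0 and not called, but their fraction signals were 3.33, 4.24 and 5.20, at or below about the array median, and so do not show that they were loaded alike. The 4 mRPL12 probe sets were 0.55 apart, from -0.46 to 0.10.

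**Figure D2:**
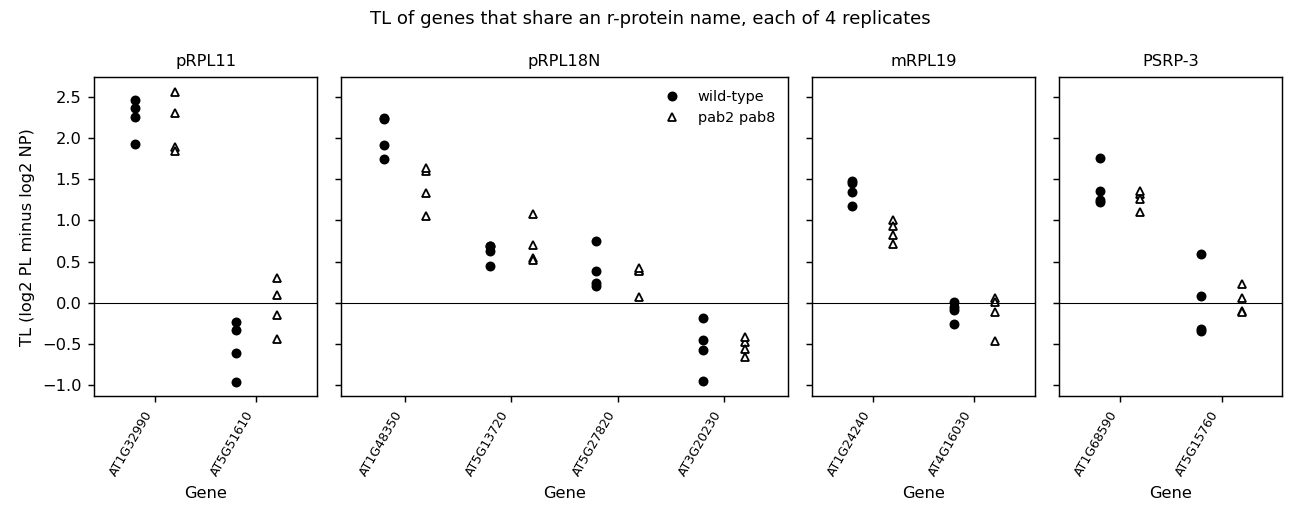
TL of the genes that share a name in the 4 families with the widest range of wild-type TL; filled circles are wild-type and open triangles *pab2 pab8*, 4 replicates each. Within each family 1 gene lies well above 0 in every replicate while at least 1 other lies near or below 0. The lower genes of pRPL11 and mRPL19 are dim probe sets, and the fraction signal of the lower PSRP-3 gene is about the array median.

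Across members, TL went with signal. The correlation of wild-type TL with mean log2 signal over the fraction arrays was r = 0.62 (rho = 0.49) over 49 plastid and r = 0.28 (rho = 0.20) over 46 mitochondrial members. The points share the same arrays, and both axes use the PL and NP signal. The 14 plastid members with a mean signal below 7 had a median TL of -0.07, against 1.26 for the 24 members at 9 or above. The medians of all probe sets in these ranges were -0.14 and 0.46. Of the 46 mitochondrial members, 32 lay below 7 and 1 at 9 or above, so the ribosomes could be compared best between 7 and 9. There, 11 plastid members had a median TL of 1.16 and 13 mitochondrial members one of 0.37, against 0.32 for all 3173 probe sets in the range. The part of signal in the difference between the ribosomes was not tested further.

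In the *pab2 pab8* mutant, the ranking was much the same. The mutant means correlated with the wild-type means at r = 0.92 over plastid and r = 0.89 over mitochondrial members, and single wild-type replicates correlated with each other at 0.89 to 0.96 and 0.72 to 0.85 (members share arrays). By limma against 0, 29 plastid members were above and 2 below 0, and 19 mitochondrial members were above and 6 below. The corresponding shares of all probe sets were 24.4% and 16.3%. The median mutant TL was 0.67 for plastid and 0.17 for mitochondrial members.

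The genotype change in TL was not called for any member. By limma, 0 of 100 passed an FDR of 0.05, against 0.0308% of all probe sets. At an unadjusted p under 0.05, 17 of 49 plastid members (15 lower, 2 higher), 3 of 46 mitochondrial members (all lower) and 2 of the 5 shared probe sets passed, against 8.64% of all probe sets in either direction and 3.12% lower. The median change was -0.17 for plastid members, with 37 of 49 below 0, and -0.05 for mitochondrial members. It was 0.05 for all probe sets, of which 41.1% were below 0, and 0.02 for cytosolic r-proteins. The plastid median was below 0 in each of 4 pairs, at -0.19, -0.26, -0.26 and -0.15 in pairs 1 to 4. The mitochondrial median was -0.20, 0.11, 0.01 and -0.01. Without replicate 2, whose mutant NP array was low, the medians were -0.15 for plastid members and -0.01 for all probe sets.

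The wild-type and mutant TL values of 12 plastid members did not overlap, all 12 being lower in the mutant, whereas 2.15% of all probe sets were lower and 2.64% higher without overlap. These were pRPL3, pRPL6, pRPL13, pRPL15, pRPL18N (AT1G48350), pRPL19 (AT4G17560), pRPL24, pRPL28, pRPS5, pRPS13, pRPS20 and PSRP-1. Of the mitochondrial members only mRPL19 (AT1G24240) did so. In pRPL19 (AT4G17560), TL was -0.58, -0.51, -0.44 and -0.70 in wild-type and -1.18, -1.24, -1.15 and -1.59 in the mutant. The change of -0.73 ± 0.16 (SE, limma) was lower in 4 of 4 pairs but missed the FDR threshold at 0.294.

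pRPL13 (AT1G78630), an early assembly protein in bacteria, had wild-type values of 1.36, 1.46, 1.14 and 1.71 and mutant values of 0.87, 0.54, 0.82 and 0.81. Its change was -0.66 ± 0.17 (FDR 0.352, limma). pRPL18N (AT1G48350) went from 2.03 ± 0.25 to 1.40 ± 0.27 (SD, n = 4), a change of -0.63 (FDR 0.415, limma). All mutant values lay below all wild-type values in both genes.

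The largest values in the opposite direction came from a pair of dim probe sets. pRPL17 changed by 0.56 (FDR 0.472, limma) and pRPL11 (AT5G51610) by 0.48 (FDR 0.525), both from wild-type TL values below 0. The largest mitochondrial value was 0.34 for mRPL36 (FDR 0.597), a small protein of the large subunit. Among the shared probe sets, that of mRPS4 was -0.78, -0.69, -0.69 and -0.86 in the mutant, a TL change of 0.36, and that of mRPS12 and mRPS7 was 0.39, 0.55, 0.33 and 0.26, a change of -0.41. Neither passed the FDR (0.554 and 0.51, limma), although the genotypes did not overlap in either. Over the plastid members at a mean signal of 9 or above, the median TL change was -0.32 (n = 24), against -0.09 for all 914 probe sets in this range. Over the 14 dim plastid members, below 7, it was 0.02.

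**Figure D3:**
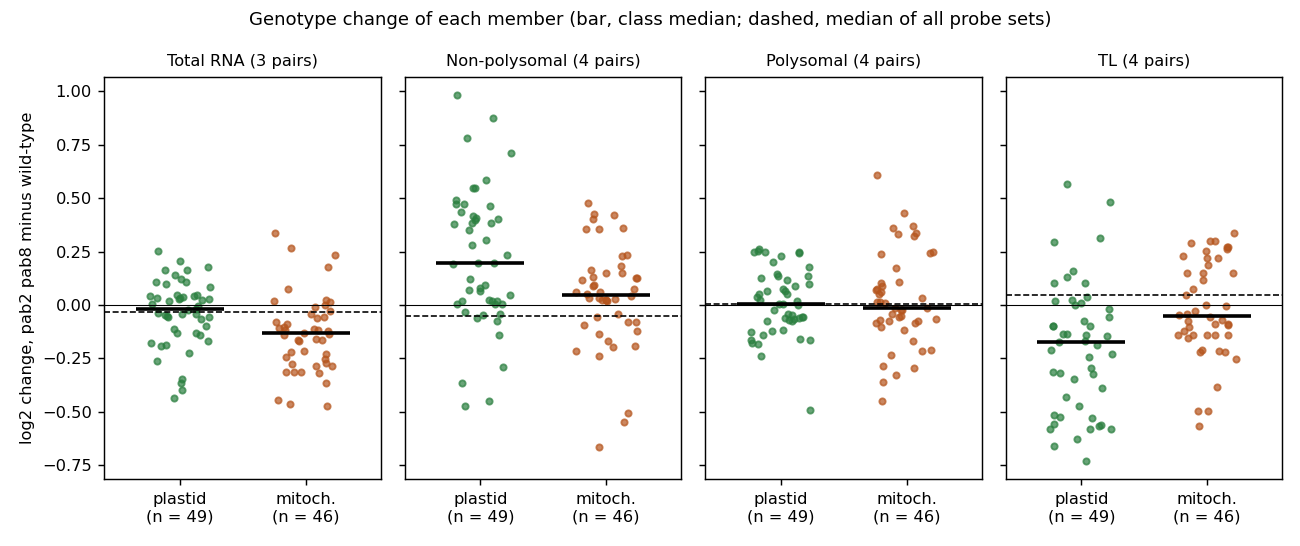
Genotype change (log2, *pab2 pab8* minus wild-type) of each plastid (n = 49) and mitochondrial (n = 46) member in T, NP, PL and TL; solid bars are class medians, dashed lines medians of all probe sets, and points are spread sideways for visibility. The plastid median lies at 0.20 in NP, 0.00 in PL and -0.17 in TL, and the mitochondrial median at -0.13 in T.

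The 2 fractions were then compared between genotypes one at a time. In NP, the plastid members had a median change of 0.20, with 39 of 49 above 0, against -0.05 for all probe sets, of which 40.8% were above 0. The pair medians were 0.08, 0.18, 0.39 and 0.13. The mitochondrial median was 0.05, with pair medians from -0.31 to 0.28. No member was called by limma in NP (FDR, 0 of 100), against 0.0747% of all probe sets. At an unadjusted p under 0.05, 7 plastid members were higher and 1 lower, and 1 mitochondrial member was higher and 3 lower, against 3.02% of all probe sets higher and 5.0% lower.

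The largest NP difference was again that of pRPL19 (AT4G17560), with wild-type NP signals of 6.34, 5.57, 5.51 and 6.26 and mutant NP signals of 7.23, 6.43, 6.43 and 7.50. The mutant was higher in each of 4 pairs, by 0.98 on average. The NP signals of this gene and of pRPS5 were the only ones of the plastid members to be higher without overlap, against 1.6% of all probe sets. The FDR was 0.338, and 0.0148 when replicate pairs were blocked (limma). The block called 0.369% of all probe sets higher.

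pRPL18N (AT1G48350) and pRPS5 (AT2G33800), whose bacterial counterpart bears on decoding accuracy, had NP changes of 0.87 and 0.78 (FDR 0.59 and 0.292, limma). On the lower side were mRPL36 at -0.66 (FDR 0.198), mRPL2 (AT2G44065) at -0.55 (FDR 0.584) and mRPL12 (AT1G70190) at -0.51 (FDR 0.539). The 3 also had TL changes above 0, at 0.34, 0.26 and 0.29. TL holds NP with a minus sign, so the NP and TL changes of a member are not independent of each other.

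In PL the class medians were close to those of the array, at 0.00 for plastid and -0.01 for mitochondrial members. No member was called by limma in PL without the block (FDR, 0 of 100), against 0.207% of all probe sets. At an unadjusted p under 0.05, 1 plastid and 6 mitochondrial members passed, all lower in the mutant. Of all probe sets, 7.6% passed, 828 of them higher and 900 lower.

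With the replicate block, 3 members were called in PL, where 2.33% of all probe sets were called higher and 2.15% lower. mRPL14 (AT1G17560), known as HUELLENLOS for its role in ovule growth, had wild-type PL signals of 6.04, 5.14, 5.20 and 5.02 and mutant PL signals of 6.82, 5.48, 5.43 and 6.10. It was higher in 4 of 4 pairs, by 0.61 (FDR 0.8 without and 0.0385 with the block, limma). PSRP-1 and mRPS14 (AT2G34520) were lower by FDR with the block, with changes of -0.49 (0.373 without, 0.0318 with) and -0.45 (0.439 without, 0.0193 with). PL signals of the genotypes overlapped in all 3 members. Named by size but not called were mRPL21 at 0.43 and, on the lower side, mRPL37 (AT3G01740) at -0.36. The PL signal of mRPL37 was lower in 4 of 4 pairs, as was that of 12.4% of all probe sets.

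**Figure D4:**
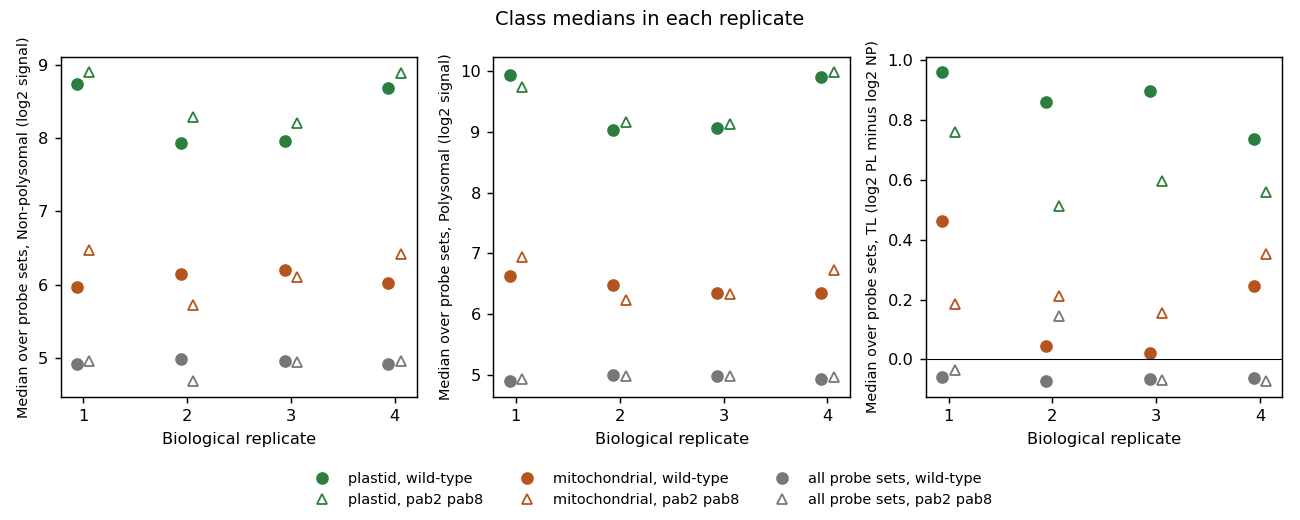
Median over the 49 plastid members, the 46 mitochondrial members and all probe sets in each replicate, for NP and PL (log2 signal) and TL; filled circles are wild-type and open triangles *pab2 pab8*. Plastid medians in NP and PL are high in replicates 1 and 4 and low in replicates 2 and 3 in both genotypes, and in TL each mutant triangle of the plastid class lies below its wild-type circle.

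The plastid medians in NP and PL differed more between replicates, which were grown at different times, than between genotypes. The median NP signal of the plastid members was 8.73 and 8.68 in wild-type replicates 1 and 4 and 7.93 and 7.96 in replicates 2 and 3. In the mutant it was 8.89 and 8.89 against 8.29 and 8.20. Both replicates 1 and 4 exceeded both replicates 2 and 3 in 38 of 49 members in wild-type NP, 35 in mutant NP, 40 in wild-type PL and 39 in mutant PL. For all 22746 probe sets this held for 5334, 6691, 6805 and 5815.

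The mitochondrial members showed this split in 4 of 46 in wild-type NP and 13 in wild-type PL, but in 29 and 36 in the mutant. In TL, where the fractions of 1 replicate are set against each other, the plastid medians of wild-type replicates 1 to 4 were 0.96, 0.86, 0.90 and 0.74. Replicates 1 and 4 did not stand apart in these TL medians.

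In total RNA, 5 members were lower in the mutant and 0 higher (limma, FDR under 0.05), 3 of them mitochondrial and 2 plastid. Of all probe sets, 1.45% were lower and 2.44% higher. At an unadjusted p under 0.05, 14 mitochondrial members were lower and 2 higher, and 6 plastid members were lower and 1 higher, against 10.5% and 10.4% of all probe sets. The median T change was -0.13 for mitochondrial members, with 38 of 46 below 0, and -0.02 for plastid members. All probe sets had a median of -0.03, with 57.5% below 0. The mitochondrial median was -0.27, 0.03 and -0.18 in pairs 1 to 3, so pair 2 did not share the difference.

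mRPL17 (AT5G64650), which lies near the tunnel exit of the bacterial ribosome, had T signals of 7.33, 7.43 and 7.44 in wild-type and 6.87, 6.99 and 6.92 in the mutant. The change was -0.47 ± 0.09 (SE), a fold of 0.72 (FDR 0.022, limma). mRPL3p (AT3G17465), an early assembly protein listed as mitochondrial by the catalog but named as plastid L3 in the RefSeq annotation, had signals of 7.65, 7.74 and 7.68 against 7.04, 7.31 and 7.32. Its change was -0.46 ± 0.10 (FDR 0.0417).

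mRPS10 (AT3G22300) of the small subunit had T signals of 8.21, 8.16 and 8.22 in wild-type and 7.71, 7.79 and 7.75 in the mutant, a change of -0.44 ± 0.08 (FDR 0.0242, limma). pRPL18N (AT5G13720) had 9.37, 9.47 and 9.52 against 8.99, 9.05 and 9.02, a change of -0.43 ± 0.09 (FDR 0.0307). pRPS10 (AT3G13120) had 11.40, 11.29 and 11.37 against 10.85, 11.05 and 10.96, a change of -0.40 ± 0.09 (FDR 0.0476, and 0.0791 with the replicate block). In all 5 genes every mutant value was below every wild-type value.

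Such separation of groups was found for 10 mitochondrial and 9 plastid members in the lower direction and 3 and 3 in the higher, against 15.0% and 11.7% of all probe sets. When any 1 replicate was left out of both genotypes, 0 of the 5 genes passed the FDR threshold (lowest FDR 0.109, limma), while all 5 kept an unadjusted p under 0.05 each time. Calls over all probe sets also fell, from 885 to 128, 68 and 377 without replicates 1, 2 and 3. In bulk tissue, fewer cells that express a gene and less RNA per cell cannot be told apart. The TL changes of these 5 genes lay between -0.23 and 0.10.

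**Figure D5:**
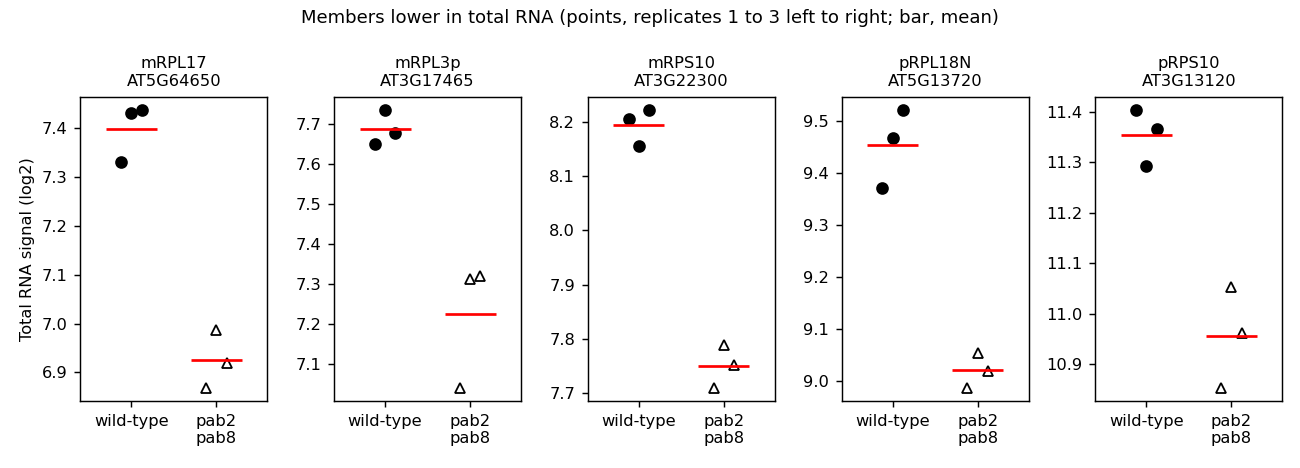
Total RNA signal (log2) of the 5 members lower in *pab2 pab8* by limma at an FDR of 0.05; points are replicates 1 to 3 and bars their means, and each panel has its own axis range that does not start at 0. In every panel the 3 mutant values lie below the 3 wild-type values, with changes from -0.47 to -0.40.

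The largest differences in the higher direction missed the test. They were the mRPL14 pair, AT1G17560 at 0.34 (T signals of 6.35, 6.27 and 6.17 against 6.44, 6.82 and 6.53, FDR 0.144, limma) and AT5G46160 at 0.27 (FDR 0.203), and pRPL31 (AT1G75350) at 0.25 (FDR 0.176). Wild-type and mutant values did not overlap in these 3 genes. Both mRPL14 genes also had PL changes above 0, at 0.61 and 0.37, the second not called with or without the block. The r-protein transcripts encoded in the organelles had a median T change of 1.08, with pair medians of 2.70, 0.41 and 0.23, which the nuclear members of the same ribosomes did not share.

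Nuclear genes for organellar translation factors gave a further view of the same machinery, with 8 of the 18 genes of the list matched to a probe set. In wild-type, 6 of the 8 had a TL above 0 and 0 below (limma, FDR; the same 6 at an unadjusted p under 0.05), with a median of 0.68. Of all probe sets, 24.2% were above and 26.2% below 0. LEPA, an elongation factor of the plastid, had a TL of 1.69, TUFM, a mitochondrial elongation factor Tu, 1.12, and FUG1, the plastid initiation factor IF2, 0.93. None of the 8 was called in T, NP, PL or TL between genotypes (limma, FDR). At an unadjusted p under 0.05, 1 of 8 passed in each of T, NP and PL and 2 of 8 in TL, against 21.0%, 8.02%, 7.6% and 8.64% of all probe sets. The median TL change of the list was -0.12.

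RefSeq gives 9 of the plastid members an embryo-defective name as symbol or synonym, for mutants whose embryos arrest: pRPL1, pRPL4, pRPL6, pRPL10, pRPL13, pRPL18N (AT1G48350), pRPL31, pRPS5 and pRPS13. This grouping was made after the TL values were known and was not tested. The 9 had wild-type TL values from 0.26 to 2.03, with a median of 1.12, against 0.64 for the other 40. Their median TL change was -0.55, against -0.14 for the others. They were also brighter, with a median signal over the fraction arrays of 9.78 against 8.54, and the part of signal in this was not tested. No mitochondrial member carried such a name.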

How the data were processed

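Per the labels, RNA was hybridized to Affymetrix ATH1 arrays, and the authors deposited RMA-normalized signals on the log2 scale. The authors also deposited log2 TL values, which differed from log2 PL minus log2 NP computed here by at most 0.001; the replicate labeled 4 is numbered 5 in that table. Another 16 columns of that table, the fraction signals behind TL, were not used. The catalog of r-protein probe sets gave identities only. The members and gene lists were chosen with earlier results of these data known.

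Fits used limma 3.58.1 (lmFit, eBayes) in R 4.3.3 over all 22746 probe sets with Benjamini-Hochberg adjustment, with no filter on dim probe sets. TL of each genotype was tested against 0 and between genotypes, and T, NP and PL between genotypes, without a block. A member was called at an FDR under 0.05. No p-value was computed for class medians. SDs are over replicates and SEs come from limma. The number of arrays limits the precision.

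Named genes were, per ribosome, the 5 highest and 5 lowest in wild-type TL; per genotype comparison, all called members, or the 3 largest in a direction where fewer than 3 were called; the shared probe sets; and the 4 name families with the widest TL range. Others, such as members named for groups that did not overlap, blocked calls or embryo-defective names, were named after their values were seen. 

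Per the labels, both genotypes were grown together within a replicate and the replicates at different times, so replicate numbers pair the samples. Deviations of same-numbered samples from their group means correlated at 0.29 to 0.38 in NP, 0.43 to 0.80 in PL, 0.05 to 0.13 in TL and -0.16 to 0.21 in T. Tested on simulated data over 22746 probe sets, of which 100 changed by 1 and 100 by 2 log2 units, the procedure recovered 80 and 100 in T, 63 and 98 in NP, 69 and 94 in PL, and 34 and 94 in TL. False calls numbered 21 in T, 4 in NP, 12 in PL and 6 in TL. Noise was drawn for each array separately, so simulated NP and PL of a replicate shared no deviations.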

Additional observations from a re-analysis of the deposited data

Results flagged for a closer look

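Among 72 groups of 4 replicate values that were tested, 3 held a sample far from the others by Dixon's ratio, and chance alone flags about 1 in 20 groups. In wild-type TL, mRPL14 (AT5G46160) was 1.374 in replicate 1 and 0.604 to 0.707 in the others. In wild-type PL the same gene was 8.23 in replicate 1 and 7.679 to 7.766 in the others, and this value enters its TL. In wild-type NP, mRPL2 (AT2G44065) was 5.23 in replicate 1 and 5.722 to 5.809 in the others. Without replicate 1, the wild-type TL of mRPL14 (AT5G46160) was 0.64, and the NP change of mRPL2 (AT2G44065), -0.55, was -0.73. Without replicate 3 that change was -0.27.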

How the results depend on the processing

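Of the summary values recomputed under alternatives, 341 stayed within their limits and 19 moved. Restricting the fit to brighter probe sets left fewer members to test. The wild-type TL counts below 0 went from 5 to 3 in plastid and from 6 to 3 in mitochondrial members. The plastid median, then over brighter members only, went from 0.79 to 1.04. Plastid members with a mean signal below 7 had a median TL of -0.07, against 1.26 at 9 or above. Without probe sets of several loci the plastid median was 0.94. With each array centered on its median, the plastid TL change was -0.24. The plastid T count, 2 lower, was 1 with the arrays of each fraction quantile-normalized again. With 1 replicate left out, the mitochondrial count of TL below 0 was 2 to 5, and the T counts were 0 to 0 in both classes. In those T fits the calls over all probe sets fell from 885 to between 68 and 377. With the replicate block, the plastid T count was 1, 1 plastid member was higher in NP, and in PL 1 plastid member was lower, 1 mitochondrial member higher and 1 lower; the block changed no other call on a class count. The wild-type TL of PSRP-3 (AT5G15760), 0.00, was -0.0081 with centered arrays and -0.19 to 0.12 with 1 replicate left out. Of the values for single genes, 455 kept their side of the threshold, 27 lost it, 4 gained it and 3 changed sign. The cause was not tested. The planned comparison with protein length was not run, as no protein lengths were used here. In TL a change of 1 log2 unit was often missed in simulated data, where the noise of NP and PL was drawn separately. Real NP and PL signals of a replicate can vary together. In wild-type, pRPL13 (AT1G78630) had SDs of 0.50 in NP, 0.62 in PL and 0.23 in TL. The simulated recovery may therefore differ from that of the real TL test. An uncalled TL change is still not shown to be absent.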
